A study of Mus musculus with 2 samples.

Results

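Ybx1, Ybx2 and Ybx3 are the Y-box genes of the mouse, and their 3 rows, found by gene symbol among the 51868 rows of the count matrix, were followed through all 2552 cells of both animals. The animals were 2 wildtype C57Bl/6J Crl littermates of 8 weeks. A piece of testis was digested and passed through a cell strainer, which lowers the number of somatic cells, and each animal gave 1 droplet library that counts 1 unique molecular identifier (UMI) per captured 3' mRNA end. No animal received a treatment, so the comparisons are between cell types within the testis and between the 2 animals.

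Y-box proteins carry a cold-shock domain and bind mRNA as well as DNA. They are named after the Y-box, a promoter element that contains an inverted CCAAT, and they package mRNA into particles that are not translated. Male germ cells transcribe the mRNAs of protamines and other sperm proteins long before the proteins are made, and store them in such particles. Ybx1 is the member found in most tissues. Ybx2, also called MSY2, is a germ cell protein that male mice need for fertility, and Ybx3, also called MSY4, binds stored spermatid mRNAs as well.

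The genes lie on 3 chromosomes of GRCm38: Ybx1 at chr4:119277981-119294604 on the minus strand, Ybx2 at chr11:69935796-69941605 on the plus strand and Ybx3 at chr6:131364855-131388476 on the minus strand. Promoter windows from 250 bases before to 50 bases after the RefSeq start (GRCm38.p6) were found for all 3. They are shown because the family is named after a CCAAT-type element and the members' levels differ from each other in these cells. Capitals mark CCAAT, or ATTGG where it stands on the other strand. The Ybx1 window is chr4:119294464-119294763 on the minus strand, the Ybx2 window chr11:69935649-69935948 on the plus strand and the Ybx3 window chr6:131388401-131388700 on the minus strand.
Ybx1: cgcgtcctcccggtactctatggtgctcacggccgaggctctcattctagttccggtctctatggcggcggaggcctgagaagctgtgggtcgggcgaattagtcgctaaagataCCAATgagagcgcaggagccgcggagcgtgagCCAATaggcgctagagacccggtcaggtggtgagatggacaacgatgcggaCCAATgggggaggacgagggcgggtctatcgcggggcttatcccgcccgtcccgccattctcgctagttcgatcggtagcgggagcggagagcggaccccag
Ybx2: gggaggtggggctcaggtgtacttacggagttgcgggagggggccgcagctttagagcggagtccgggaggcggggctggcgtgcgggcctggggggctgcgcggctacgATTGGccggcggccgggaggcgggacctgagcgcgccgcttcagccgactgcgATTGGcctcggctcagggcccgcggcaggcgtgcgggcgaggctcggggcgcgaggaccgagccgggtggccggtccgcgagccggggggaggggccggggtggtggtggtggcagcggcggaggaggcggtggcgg
Ybx3: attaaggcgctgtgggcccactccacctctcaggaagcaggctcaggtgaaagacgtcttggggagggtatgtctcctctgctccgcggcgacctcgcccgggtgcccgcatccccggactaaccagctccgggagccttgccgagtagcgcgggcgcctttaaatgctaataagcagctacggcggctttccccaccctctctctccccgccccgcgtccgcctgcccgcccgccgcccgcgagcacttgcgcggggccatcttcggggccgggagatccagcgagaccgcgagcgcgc

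The Ybx1 window held 3 CCAAT on the gene's own strand, 135, 103 and 52 bases before the RefSeq start. The Ybx2 window held 2 on the opposite strand, 140 and 87 bases before the RefSeq start, and the Ybx3 window held 0. A second RefSeq start of Ybx2 lay downstream, at chr11:69936078-69936377, and its window held 0 as well. These RefSeq starts lay inside the genes as placed above, whose ends come from GENCODE M21. The CCAAT nearest to the start thus lay inside those bounds for Ybx1 and Ybx2. CCAAT was present on either strand in 37.9% of 27025 windows of the same length. The longer letters CTGATTGG, an ATTGG with the 3 bases before it in the Y-box, stood in 4.31% of all windows and in 0 of the members' windows. The windows were rich in G and C, with 63.3% in Ybx1, 78.0% in Ybx2 and 69.0% in Ybx3 against a median of 52.7% over all windows. These matches are letters in a window and carry no measurement of binding.

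Reads could be told apart between the members. None of the 403 stretches of 98 bases, the length of the RNA read, in the last 500 bases of each member's longest coding transcript was found in a transcript of another gene. No annotated gene overlapped Ybx1 or Ybx2. Gm22362, which overlaps Ybx3 on the same strand, held 1 UMI in all.

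The matrix held 27450497 UMIs in 1237 cells of mouse 1 and 30302332 in 1315 cells of mouse 2, and the animals shared 0 barcodes. K-means clustering without the Y-box rows gave 6 large clusters with 2534 cells, numbered here by their median pseudotime. Cluster 1 was early spermatocyte-like (164 cells), cluster 2 pachytene or later spermatocyte-like (526 cells), cluster 3 stayed unnamed and was led by Ssxb1 and Ssxb2 (688 cells), and cluster 4 was round spermatid-like (449 cells). Clusters 5 and 6 were both elongating or condensing spermatid-like. Cluster 5 had 511 cells and was led by Prm1, Tnp2 and Prm2, while cluster 6 had 196 cells, was led by Hemgn and also held round spermatid markers. Their median pseudotimes of 0.906 and 0.912 did not order them. Small clusters were Leydig-like (5 cells), Sertoli-like (7 cells) and spermatogonium-like (6 cells). Immune markers summed to 0 to 7.41 CPM (UMIs scaled to a total of 1000000) and peritubular or endothelial markers to 0.916 to 8.54 CPM in the large clusters. Leydig markers summed to at most 62.8 CPM there, and Sertoli markers to 33.0 to 196 CPM.

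UMIs of all 3 members were found in every large germ cell cluster, and in CPM each member was highest in early spermatocyte-like cells. Scaled by TMM, the normalization used in the tests between clusters, Ybx2 in mouse 1 was instead highest in cluster 5, with 623 against 336 in cluster 1 and 395 in cluster 2. Each member was found in most cells of both animals. Ybx1 received 76249 UMIs, Ybx2 35242 and Ybx3 16996. Since each captured molecule gives 1 UMI at its 3' end, these counts do not scale with transcript length, although the capture of each mRNA may differ. Ybx1 was found in 91.6% of cells of mouse 1 (95% exact binomial interval 89.9 to 93.1%) and 97.6% of mouse 2 (96.7 to 98.4%). Ybx2 was found in 97.4% (96.4 to 98.2%) and 98.5% (97.7 to 99.1%), and Ybx3 in 86.7% (84.6 to 88.5%) and 89.05% (87.2 to 90.7%). When every cell was thinned to 5000 UMIs, which no cell fell short of, the shares were 82.7 and 95.3% for Ybx1, 76.7 and 90.2% for Ybx2, and 61.7 and 65.9% for Ybx3. Intervals cover counting error only.

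Ybx1, the broadly expressed member, had 1114 CPM in mouse 1 and 3229 CPM in mouse 2 in early spermatocyte-like cells. It had 697 and 2482 CPM in cluster 2, 537 and 2054 CPM in cluster 3, and 444 and 1792 CPM in round spermatid-like cells. The lowest CPM was in cluster 5, with 203 and 927 CPM, and cluster 6 had 335 and 1429 CPM. In CPM both animals gave the same order of the 6 clusters. The highest cluster exceeded the lowest by 5.49-fold in mouse 1 and 3.48-fold in mouse 2. This shared order was lost under TMM, where the lowest value of mouse 2 was 1688, reached in cluster 3. Its clusters 5 and 6 then had 1921 and 2007, above the 1730 of cluster 4. For mouse 1, cluster 5 stayed lowest at 409, close to the 428 of cluster 4. The animals lay far apart: the value of mouse 2 exceeded that of mouse 1 by at least 2.90-fold in each cluster, so neighbouring clusters overlapped.

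Ybx2, the germ cell member, had 544 CPM in mouse 1 and 1829 CPM in mouse 2 in early spermatocyte-like cells and 497 and 1384 CPM in cluster 2. Cluster 3 had 295 and 665 CPM, and round spermatid-like cells had 259 and 443 CPM. Late spermatids kept much of this level, with 309 and 370 CPM in cluster 5 and 240 and 314 CPM in cluster 6. The highest cluster exceeded the lowest by 2.27-fold in mouse 1 and 5.82-fold in mouse 2. The animals lay far apart in spermatocytes and close together in late spermatids, and the values of clusters 3 to 6 overlapped.

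Ybx3 had 530 CPM in mouse 1 and 627 CPM in mouse 2 in early spermatocyte-like cells, and 382 and 450 CPM in cluster 2. It had 276 and 289 CPM in cluster 3, 197 and 224 CPM in round spermatid-like cells, 90.6 and 81.8 CPM in cluster 5 and 133 and 161 CPM in cluster 6. Here the animals lay close together, and no 2 of the 6 clusters overlapped in CPM. The share of all genes that separate in this way was not taken, so this cannot be called particular to Ybx3. The highest cluster exceeded the lowest by 5.85-fold and 7.67-fold in CPM. Scaled by TMM, Ybx3 had 327 and 431 in cluster 1, 304 and 343 in cluster 2 and 221 and 238 in cluster 3. It had 190 and 217 in cluster 4, 183 and 169 in cluster 5 and 178 and 226 in cluster 6. Clusters 1 and 2 then overlapped, and cluster 6 overlapped with clusters 3, 4 and 5.

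**Figure D1:**
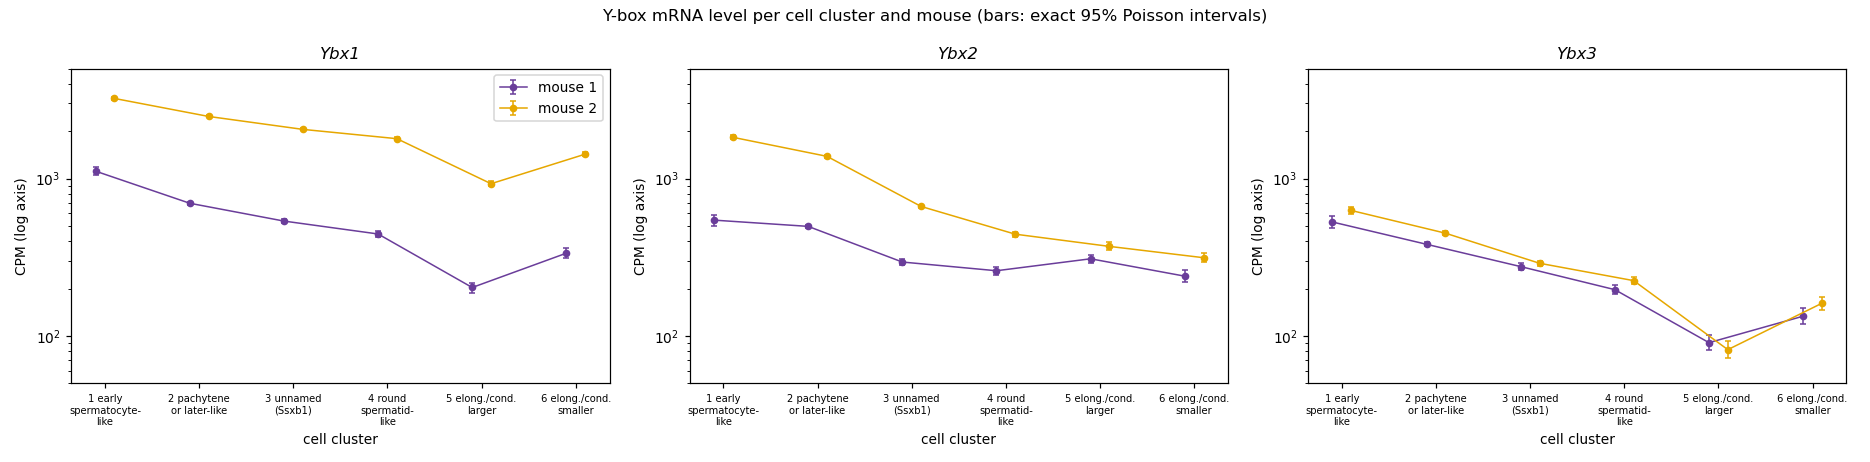
Level of Ybx1, Ybx2 and Ybx3 in CPM (log axis) in the 6 large clusters for mouse 1 (purple) and mouse 2 (yellow), with exact 95% Poisson intervals. Ybx1 lies higher in mouse 2 in every cluster, the animals approach each other for Ybx2 in clusters 5 and 6, and they lie close together for Ybx3 throughout.

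The small somatic clusters held few UMIs. Ybx1 was present in the 7 Sertoli-like cells with 22 UMIs in mouse 1 and 3 in mouse 2 (303 and 245 CPM), and in the 5 Leydig-like cells with 3 and 25 UMIs (300 and 614 CPM). The 6 spermatogonium-like cells had 11 and 21 UMIs of Ybx1, or 514 and 478 CPM, below the early spermatocyte-like cells of the same animal. Ybx2 gave 9 and 0 UMIs in Sertoli-like, 0 and 2 in Leydig-like, and 2 and 1 in spermatogonium-like cells. It was found in 66.7% of the 6 Sertoli-like cells of mouse 1 at a median depth of 11560 UMIs (interval 22.3 to 95.7%). The source of these UMIs was not tested. The large germ cell clusters, with at least 95.04% of cells in either animal, lay above 66.7% but, with the exception of cluster 5 in mouse 1, were also deeper. Ybx3 gave 5 and 0 UMIs in Sertoli-like, 1 and 6 in Leydig-like, and 1 and 4 in spermatogonium-like cells. In the Sertoli-like cells of mouse 1 it had 68.9 CPM (interval 22.4 to 161 CPM) and was found in 66.7% of cells, while in cluster 5 it was found in 53.9 and 52.0% of cells. The level of Ybx3 in cluster 5, with 90.6 and 81.8 CPM, cannot be told apart from that in these somatic cells.

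Differences between clusters with neighbouring numbers were tested with edgeR on UMIs summed per animal and cluster, adjusted over 13896 genes. In this fit, counts are scaled by TMM, which sets most genes as unchanged, and log2 fold changes differ from ratios of CPM where a few mRNAs fill the library. The 4 genes Prm1, Prm2, Tnp1 and Tnp2 took 18.4 and 15.2% of all UMIs in cluster 5 and 7.03 and 6.39% in cluster 6, against at most 0.736% in the other large clusters. Sums with the same number come from the same animal, and the fit with the animal as a block is given where it changes the call. The block sets 1 ratio of the animals for all clusters. For Ybx2 that ratio in CPM ran from 3.36 in cluster 1 to 1.20 in cluster 5, and for Ybx1 from 2.90 in cluster 1 to 4.57 in cluster 5. The p-values of Ybx1 and the very small ones of Ybx2 with the block rest on 2 animals. They also rest on a ratio that did not hold, and need care. Without the block, the p-values take in the whole offset between the 2 animals, which was large for Ybx1 and for Ybx2 in spermatocytes. A member that did not pass there was thus not shown to be unchanged. With the block, they measure the spread left after 1 ratio of the animals is taken out. Cluster 6 was not placed after cluster 5 in time, so "rose" and "fell" between these give the direction from the lower to the higher cluster number, and cluster 6 is also set against cluster 4.

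From cluster 1 to cluster 2, 0 of the 3 members passed the test, where 50.3% of all genes did (54.6% with the block). The log2 changes were -0.26 (SE 0.71, adjusted p = 0.797) for Ybx1, -0.15 (SE 0.43, adjusted p = 0.807) for Ybx2 and -0.23 (SE 0.15, adjusted p = 0.208) for Ybx3. At an unadjusted p under 0.05 the count was also 0, and DESeq2 called Ybx3 alone (-0.54, adjusted p = 0.0018). From cluster 2 to cluster 3, 62.6% of genes passed (69.0% with the block). Ybx3 fell by 0.49 on the log2 scale (SE 0.15, adjusted p = 0.00626). Ybx2 had -0.89 (SE 0.43, adjusted p = 0.0782) and passed with the block (-0.85, SE 0.11, adjusted p = 2.9e-13). Ybx1 had -0.21 (SE 0.71, adjusted p = 0.817) and also passed with the block (-0.27, SE 0.12, adjusted p = 0.0386).

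From cluster 3 to the round spermatid-like cluster 4, 0 of the 3 members passed without or with the block, against 46.2 and 52.3% of genes. The changes were 0.027 for Ybx1 (adjusted p = 0.985), -0.21 for Ybx2 (adjusted p = 0.742) and -0.18 for Ybx3 (adjusted p = 0.372), at unadjusted p of 0.97, 0.636 and 0.256. DESeq2 called 0 as well.

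From cluster 4 to cluster 5, Ybx2 was the member that changed, rising by 1.03 (SE 0.44, adjusted p = 0.0492; 1.11 with the block), where 58.1% of genes passed (60.3% with the block). Ybx1 had 0.11 (SE 0.71, adjusted p = 0.914) and Ybx3 -0.21 (SE 0.16, adjusted p = 0.28). This call depended on the test and the scaling. DESeq2 gave 1.30 (adjusted p = 0.122). With the total UMI count in place of TMM, Ybx2 had -0.060 (adjusted p = 0.918), the CPM of Ybx2 being higher in cluster 5 in mouse 1 and lower in mouse 2. The median of all genes was -0.18 under TMM and -1.25 under the total UMI count. Relative to this median, Ybx2 lay 1.21 and 1.19 higher under the 2 scalings, Ybx1 0.29 and 0.25 higher, and Ybx3 had -0.027 and -0.048.

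From cluster 5 to cluster 6, Ybx2 had -0.87 (SE 0.45, adjusted p = 0.134) and passed with the block (-0.92, SE 0.13, adjusted p = 2.6e-12), where 39.3% of genes passed without and 42.4% with the block. Ybx1 had 0.081 (adjusted p = 0.965) and Ybx3 0.20 (adjusted p = 0.366). Under the total UMI count Ybx3 changed at both steps, by -1.30 (adjusted p = 1.3e-07) from cluster 4 to 5 and by 0.78 (adjusted p = 0.000193) from cluster 5 to 6, where the median of all genes was 0.59. Between clusters 4 and 6, where 44.2% of genes passed (48.5% with the block), cluster 6 minus cluster 4 was 0.19 for Ybx1 (adjusted p = 0.865), 0.17 for Ybx2 (adjusted p = 0.802) and -0.0049 for Ybx3 (adjusted p = 0.996).

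**Figure D2:**
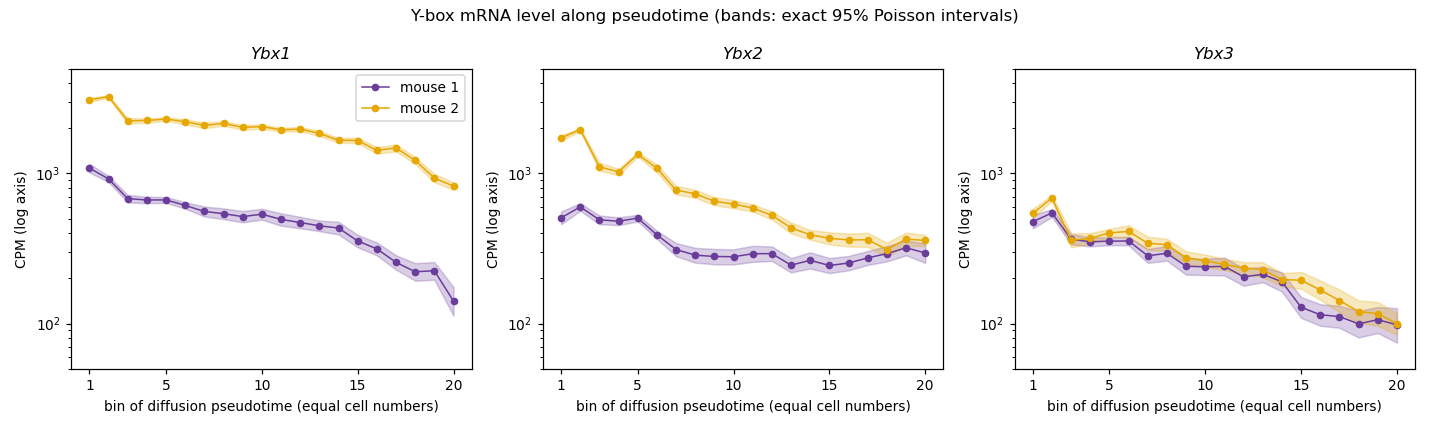
Level of the 3 members in CPM (log axis) in 20 bins of diffusion pseudotime with equal cell numbers, for mouse 1 (purple) and mouse 2 (yellow), with exact 95% Poisson bands. The highest level lies in the first 2 bins for each member and animal. Ybx1 and Ybx2 are higher in mouse 2 in 20 of 20 bins, and Ybx3 in 19.

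Along pseudotime the highest level of Ybx1 was 1086 CPM in mouse 1 (bin 1) and 3251 CPM in mouse 2 (bin 2), and that of Ybx3 546 and 687 CPM (both bin 2). Ybx2 peaked in bin 2 with 599 and 1961 CPM. In the last bin Ybx1 had 141 and 823 CPM, Ybx2 296 and 358 CPM, and Ybx3 98.03 and 99.84 CPM. The plot of levels by bin shows Ybx1 and Ybx3 lowest at the end in CPM, while Ybx2 had 296 CPM there against 279 CPM in bin 10 in mouse 1, and 358 against 625 CPM in mouse 2. The bins were scaled to CPM alone. Between clusters, TMM did not keep a late low of Ybx1 in mouse 2, with 1921 and 2007 in clusters 5 and 6 against 1730 in cluster 4.

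Within cluster 5, Ybx1 and Ybx3 were lowest in the cells richest in protamine mRNA, and Ybx2 was not. The 511 cells were cut into 4 slices of equal cell number by the share of their UMIs on Prm1, Prm2, Tnp1 and Tnp2, the protamines and transition proteins that replace histones in condensing spermatids. This cut was chosen after the levels had been seen, and no test was made over cells. In mouse 1, Ybx1 had 370, 389, 124 and 42.7 CPM from the slice with the lowest share to that with the highest, and in mouse 2 it had 1472, 941, 155 and 86.0 CPM. Ybx3 had 173, 132, 81.7 and 30.6 CPM in mouse 1 and 102, 114, 30.2 and 17.6 CPM in mouse 2. Ybx2 had the opposite order, with 271, 268, 325 and 347 CPM in mouse 1 and 336, 371, 403 and 439 CPM in mouse 2.

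The first slice exceeded the last by 8.68-fold in mouse 1 and 17.1-fold in mouse 2 for Ybx1 and by 5.65-fold and 5.81-fold for Ybx3, while for Ybx2 the last exceeded the first by 1.28-fold and 1.30-fold. Ybx1 was found in 85.7 and 96.0% of the cells of the first slice and in 39.4 and 55.9% of the last, and Ybx3 in 82.1 and 59.6% and in 30.9 and 20.6%. Ybx2 was found in at least 92.9% of the cells in every slice of both animals. Median depth was 11058 and 13272 UMIs in the first slice and 10512 and 12139 in the last. Counting only UMIs outside the 4 genes, the folds were 7.66 and 15.1 for Ybx1, 4.98 and 5.14 for Ybx3, and 1.45 and 1.47 for Ybx2 in the other direction. The change of all genes over the slices was not taken, so how far these folds are particular to the members cannot be said. With slices cut within each animal, Ybx1 gave 9.81-fold and 8.88-fold, although in mouse 2 its highest value was then in the second slice, with 1710 CPM against 1082 CPM in the first. Ybx3 then gave 5.94-fold and 3.84-fold, and in mouse 2 its first slice (87.3 CPM) lay below the second (117 CPM) and the third (91.8 CPM).

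**Figure D3:**
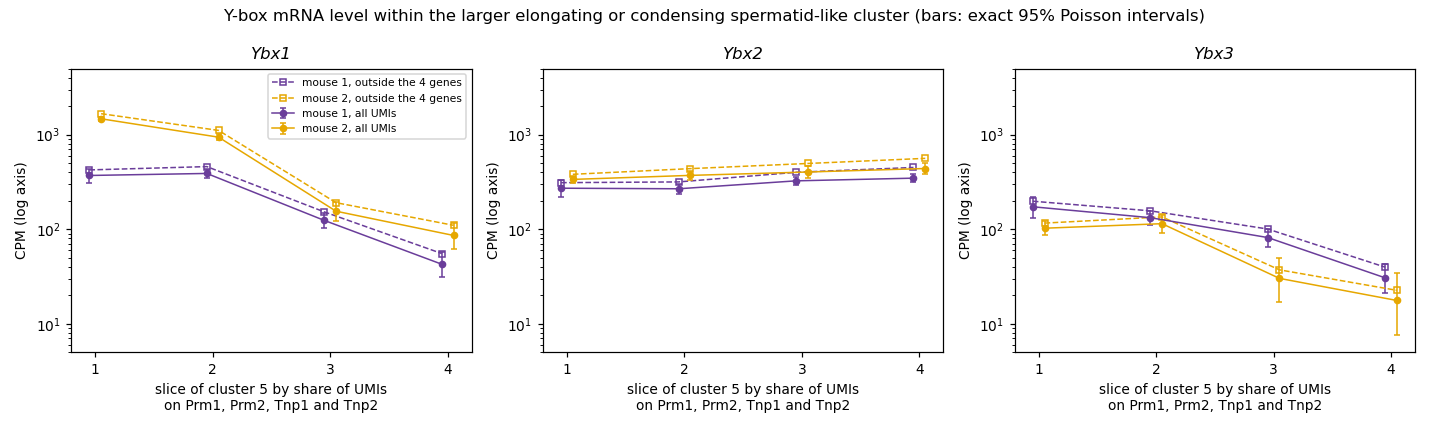
Level of the 3 members in CPM (log axis) in the slices of cluster 5, ordered by the share of UMIs on Prm1, Prm2, Tnp1 and Tnp2, for mouse 1 (purple) and mouse 2 (yellow). Filled points with exact 95% Poisson intervals use all UMIs and open squares those outside the 4 genes. Ybx1 and Ybx3 are lowest in the fourth slice, and Ybx2 is highest there.

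The make-up of the family followed these levels. Over the large clusters Ybx1 took 45.6% of the Y-box UMIs in mouse 1 and 64.0% in mouse 2, Ybx2 31.1 and 26.2%, and Ybx3 23.2 and 9.79%. Ybx1 held the largest share in 11 of the 12 sums of animal and cluster. The exception was cluster 5 of mouse 1, where Ybx2 took 51.3% (exact binomial interval 49.1 to 53.4%) and Ybx1 33.7% (31.7 to 35.7%). In the same cluster of mouse 2, Ybx1 took 67.2% (65.8 to 68.6%) and Ybx2 26.9% (25.5 to 28.2%). Within its slices cut over both animals, the leading member was the same in mouse 1 and mouse 2. Ybx1 led Ybx2 in the first slice, with 135 against 99 UMIs and 2039 against 466. Ybx2 led Ybx1 in the last, with 374 against 46 and 199 against 39. The first slice held 28 and 99 cells and the last 94 and 34, and the part of this make-up in the shares was not tested. All Y-box UMIs together made up 2188 and 5685 CPM in early spermatocyte-like cells and 603 and 1379 CPM in cluster 5.

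**Figure D4:**
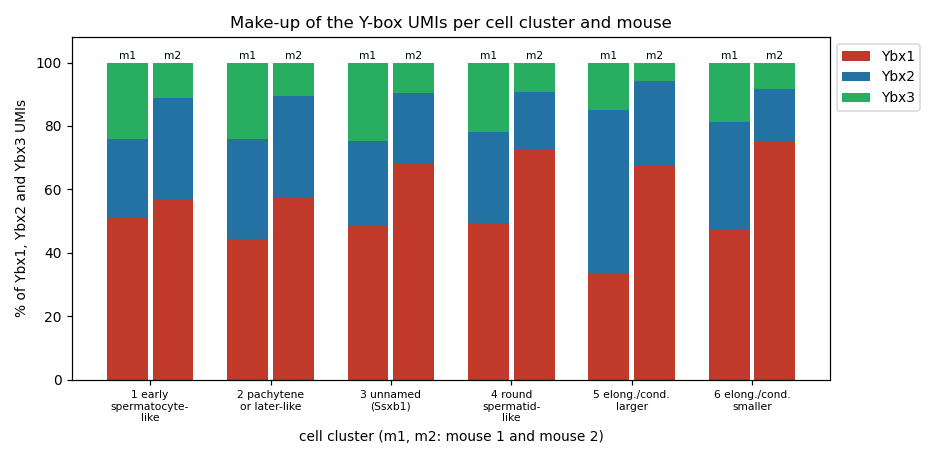
Percentage of the UMIs of Ybx1, Ybx2 and Ybx3 taken by each member in the 6 large clusters, with mouse 1 (m1) and mouse 2 (m2) side by side. Ybx1 holds the largest part in each bar but that of cluster 5 in mouse 1, where Ybx2 holds 51.3%.

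At 5000 UMIs per cell, all 3 members were found together in 69.8 and 86.5% of early spermatocyte-like cells and in 43.9 and 63.8% of round spermatid-like cells. In cluster 5 the share was 13.5 and 19.7%, and 9.57 and 3.49% of cells had no UMI of any member. Over cells of one animal and cluster at this depth, Spearman's rho between Ybx1 and Ybx3 was 0.29 in mouse 1 and 0.39 in mouse 2 in cluster 5 (282 and 229 cells). Ybx1 and Ybx2 had -0.07 and -0.09 there. In the other clusters Ybx1 and Ybx3 had 0.21 and 0.28 (cluster 1), 0.15 and 0.14 (cluster 2), -0.058 to 0.018 (clusters 3 and 4) and -0.0025 and 0.036 (cluster 6). Ybx2 and Ybx3 had 0.36 and 0.25 in cluster 1. These values describe cells that share a library and are sparse counts. The spread of Ybx1 in cluster 5 was wide, with single-cell quartiles of 118, 345 and 1621 CPM in mouse 2.

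The animals differed in Ybx1 and Ybx2, to a degree that varied with the cell type for each of them. With 1 animal against 1 there is no test, and animal and library cannot be told apart. The ratio of mouse 2 over mouse 1 for Ybx1 was 2.90 (exact interval 2.73 to 3.08) in cluster 1, 3.56 in cluster 2, 3.83 in cluster 3, 4.03 in cluster 4, 4.57 (4.21 to 4.96) in cluster 5 and 4.26 in cluster 6. For Ybx2 it was 3.36 (3.08 to 3.67) in cluster 1, 2.79 in cluster 2, 2.25 in cluster 3, 1.71 in cluster 4, 1.20 (1.10 to 1.30) in cluster 5 and 1.31 in cluster 6. The ratio of Ybx2 lay above that of Ybx1 in cluster 1 and near 1 in late spermatids. Ybx3 had ratios of 0.903 (0.763 to 1.07, cluster 5) to 1.21 (1.04 to 1.41, cluster 6). Along pseudotime the ratio of Ybx1 ranged from 2.85 in bin 1 to 5.83 in bin 20, and that of Ybx2 from 3.41 in bin 1 to 1.06 in bin 18.

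**Figure D5:**
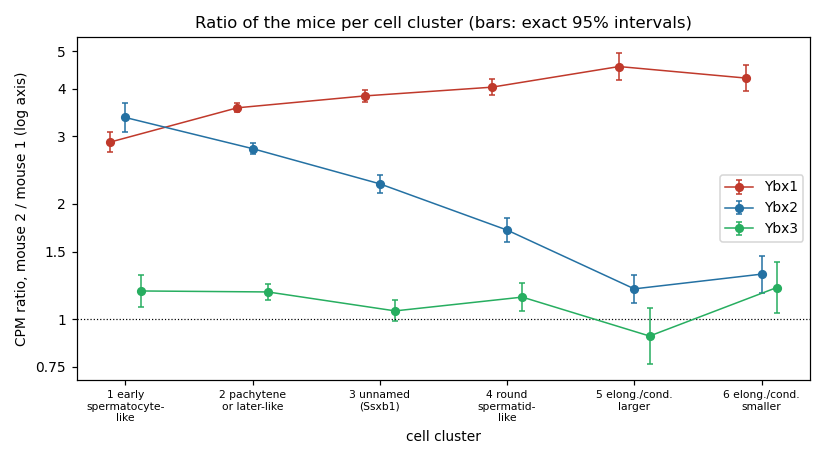
Ratio of CPM, mouse 2 over mouse 1 (log axis), for Ybx1 (red), Ybx2 (blue) and Ybx3 (green) in the 6 large clusters, with exact 95% intervals and a dotted line at 1. Ybx1 lies between 2.90 and 4.57, Ybx2 goes from 3.36 in cluster 1 to 1.20 in cluster 5, and Ybx3 lies near 1.

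Differences of this size were rare. At least 2-fold higher in mouse 2 were 0.623% of genes with 100 or more UMIs in cluster 1, 0.486% in cluster 2, 0.472% in cluster 3, 0.583% in cluster 4, 0.700% in cluster 5 and 0.529% in cluster 6. Over the large clusters together it was 0.603%, or 74 of 12262 genes, among which Ybx1 had rank 14 and Ybx2 rank 53, while Ybx3 had rank 3996. In the other direction, 39 genes were at least 2-fold higher in mouse 1 over the large clusters together. In cluster 1 there were 38 such genes, against 30 higher in mouse 2, while mouse 2 had more in clusters 2 to 6. Of 2187 genes with 100 or more UMIs in all 6 clusters, 4 were at least 2-fold higher in mouse 2 in each of them: Ybx1, Sntb2, Rnf187 and Tpgs2, named after these values had been seen. Genes at least 2-fold higher in mouse 1 in all 6 clusters numbered 0. The ratios over the large clusters were 3.70 for Ybx1, 2.21 for Ybx2 and 1.11 for Ybx3. Sertoli markers summed to 196 CPM in mouse 1 (8 of 10 detected) and 65.2 CPM in mouse 2 (9 of 10) in cluster 1, and their part in the ratios there was not tested. In the other large clusters they summed to at most 90.9 CPM.

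Cluster 5 needs care in this comparison, since the slice with the lowest share on the 4 genes held 28 cells of mouse 1 and 99 of mouse 2, and that with the highest 94 and 34. Within slices cut over both animals, the ratio of Ybx1 was 3.98, 2.42, 1.25 (0.932 to 1.67) and 2.02 (1.28 to 3.16), all below the 4.57 of the whole cluster. Within slices cut in each animal alone it was 2.76, 6.22, 11.8 and 3.05. That of Ybx2 stayed at 1.24 to 1.39 with the first cut and 1.12 to 1.26 with the second. Ybx3 had 0.370 to 0.864 with the first cut and 0.588 to 1.69 with the second.

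The genes whose levels were most like those of each member were sought over the 12 sums, by Pearson's r of log2(CPM + 10) among 7865 genes with at least 500 UMIs. Ybx1 was followed most closely by Odc1, the ornithine decarboxylase of polyamine synthesis (r = 0.96), then Ccdc74a, Rnf187, Zfand5 and Purb (0.90 to 0.95). Ybx2 was followed by Mpp6 and Rnf187 (0.95 each), then Atmin, Synrg and Hras (0.93 to 0.95). Ybx3 was followed by Mrpl24, a mitochondrial ribosomal protein, Ppia, Eefsec, Scrib and Atp5a1 (0.99 each). The sums share 2 animals and 6 clusters, so the first 2 lists also hold genes that differ between the animals. In the Ybx1 list the mean ratio of mouse 2 over mouse 1 was 6.13 for Zfand5, 3.98 for Rnf187, 3.80 for Ccdc74a, 2.08 for Purb and 1.62 for Odc1. In the Ybx2 list it ran from 1.31 for Hras to 3.98 for Rnf187. Between members, r was 0.80 for Ybx1 and Ybx2, 0.62 for Ybx1 and Ybx3, and 0.74 for Ybx2 and Ybx3. Among the 7865 genes, Ybx2 had rank 22 and Ybx3 rank 146 in likeness to Ybx1. In likeness to Ybx2, Ybx1 had rank 147 and Ybx3 rank 721. Many genes were more like Ybx3 than the other members were, with rank 3567 for Ybx2 and 4085 for Ybx1. Over the 6 cluster means, with the animals averaged, Ybx1 and Ybx3 had r = 0.99 and Ybx1 and Ybx2 0.85. There Ybx3 had rank 17 and Ybx2 rank 2456 in likeness to Ybx1. The genes most like Ybx1 were then Zcrb1, AI413582, Tmem258, Pcif1 and Eefsec, none of them among those named for Ybx1 over the 12 sums.

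The mRNAs known to be stored before translation changed in most steps. All 9 on the list were tested. From cluster 1 to cluster 2, 1 rose and 3 fell (Tnp1, Tnp2 and Akap4), against 25.6 and 24.7% of all genes. All 8 elongating or condensing spermatid markers had UMIs even in the Leydig-like and spermatogonium-like clusters. Whether UMIs of stored mRNAs in clusters 1 and 2 came from those cells themselves was not tested. From cluster 2 to cluster 3, 9 of 9 rose (31.8% of genes), from cluster 3 to cluster 4, 8 rose (25.9%), and from cluster 4 to cluster 5, 9 rose (26.4%), with a median log2 change of 3.12 against -0.18 for all genes. In CPM, 8 of the 9 were also higher in cluster 5 in both animals, and Odf1 was higher in mouse 2 alone. From cluster 5 to cluster 6 all 9 were lower (15.9%). Tnp1, a transition protein mRNA, rose by 5.24 (SE 0.27, adjusted p = 1.2e-13) and Tnp2 by 5.85 (SE 0.28, adjusted p = 2.5e-14) from cluster 4 to 5. Akap4, the main protein of the sperm fibrous sheath, rose by 2.75 and Pgk2, the germ cell phosphoglycerate kinase, by 2.06 at the same step. Of the 8 promoter windows matched on this list, 2 held CCAAT, those of Pgk2 and Akap4.

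The list of mRNP and translational repression genes split. Of 28 genes 25 were tested, and 6 rose and 8 fell from cluster 1 to 2, 4 and 8 from cluster 2 to 3, 4 and 6 from cluster 3 to 4, 5 and 12 from cluster 4 to 5, and 11 and 3 from cluster 5 to 6. The shares of all genes lower at these steps were 24.7, 30.8, 20.3, 31.8 and 15.9%, and those higher 25.6, 31.8, 25.9, 26.4 and 23.4%. In CPM, 19 of the 25 were lower and 4 higher in cluster 5 than in cluster 4 in both animals. The same count was not taken over all genes. Under the total UMI count, 7680 of 13896 genes were called lower and 1810 higher at this step, with a median log2 change of -1.25. Most genes thus went down in this scaling. The 2 counts differ in measure, so how far that of the list is particular to it cannot be said. Tdrd6, a tudor protein of the chromatoid body, fell by 1.64 (SE 0.20, adjusted p = 1.5e-07) from cluster 4 to 5, and G3bp1, a stress granule protein, fell by 1.33 (SE 0.28). Fxr1, an RNA-binding protein that activates stored mRNAs in spermatids, rose by 1.73 (SE 0.15, adjusted p = 5.5e-10), and was higher in CPM too, with 982 and 1210 CPM in cluster 5 against 690 and 709 CPM in cluster 4. Pabpc6, a poly(A)-binding protein, had 723 and 724 CPM in cluster 2 and 25.2 and 22.2 CPM in cluster 4.

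Of the 5 other cold-shock domain genes 3 were tested. Carhsp1 rose by 2.59 (SE 0.17, adjusted p = 4e-12) from cluster 2 to 3, by 2.20 from cluster 3 to 4 and by 1.65 from cluster 4 to 5, and fell by 1.16 from cluster 5 to 6. It had 24.7 and 30.5 CPM in cluster 2 and 849 and 971 CPM in cluster 5. Ybx1, Ybx2 and Ybx3 each had lower CPM in cluster 5 than in cluster 2 in both animals. In the edgeR fit, scaled by TMM, cluster 5 minus cluster 2 was -0.073 for Ybx1 (adjusted p = 0.931) and -0.061 for Ybx2 (adjusted p = 0.904). For Ybx3 it was -0.88 (adjusted p = 2.9e-05), and the share of all genes that passed was not taken for this pair. Lin28b fell by 3.48 (SE 0.65) from cluster 2 to 3 at 95 UMIs in all.

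Between the animals, 1 gene of these lists differed by 2-fold or more. Of their 42 genes 35 had 100 or more UMIs over the large clusters, and the median ratio of mouse 2 over mouse 1 was 0.996. Elavl1, an RNA-binding protein that stabilises mRNAs, had a ratio of 3.02 and was named after its value had been seen. Over all genes 0.603% were at least 2-fold higher in mouse 2. It had 40.1 CPM in mouse 1 and 111 CPM in mouse 2 in cluster 2, and 27.5 and 93.7 CPM in cluster 4.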

How the data were processed

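Single-cell RNA-Seq of 2 mouse testes was used. The deposited values are whole UMI counts per gene and cell, which the authors made with Cell Ranger 2.0.0 and bcl2fastq 2.17.1.14 on repeat-masked GRCm38 with Ensembl 89 genes and added repeats, with reads of mouse 2 downsampled until both mice had an equal mean of reads per cell. All cells were kept, including 25 that scrublet called as doublets. The ending number of a barcode was taken as the mouse number.

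The Y-box rows, Ybx1-ps2 and the gene lists were left out of K-means clustering (K = 9, 10 principal components, seed 42) and of diffusion pseudotime. A cluster took the name of the list with the largest share of markers at 1.5 times the CPM of all cells or more, with at least 3 such markers, a rule set after the clusters had been seen. UMIs were summed per mouse and cluster for clusters with 20 cells or more in each mouse, giving 12 sums, and tested with edgeR 4.0.16 (TMM, filterByExpr, quasi-likelihood test, Benjamini-Hochberg adjustment, threshold 0.05) in R 4.3.3, without a block in the main fit. DESeq2 1.42.0, other scalings, clusterings and thinning were alternatives. The procedure was tested on simulated data. Same-numbered sums come from 1 animal, and the correlations of their deviations were 0.0158 to 0.230. Named list genes are up to 4 per list that passed at the most steps, ties by name. One gene that this rule names is not reported here. Other list genes were named after their values had been seen. Positions come from GENCODE M21 and promoters from RefSeq, both GRCm38. The members and lists were chosen with earlier results of these data known. Python 3.11.15 with scanpy 1.11.5, scipy 1.17.1 and matplotlib 3.10.9 was used.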

Additional observations from a re-analysis of the deposited data

Results flagged for a closer look

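Signal was found in a row outside the measurement of the 3 members. Ybx1-ps2, a processed pseudogene of Ybx1 at chr6:37686239-37687195, held 33 UMIs, 6 in mouse 1 and 27 in mouse 2. This is few beside the 76249 UMIs of Ybx1. Whether these reads came from the pseudogene or from Ybx1 was not tested.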

How the results depend on the processing

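Of the comparisons between clusters, the fall of Ybx3 from cluster 2 to 3 passed in every alternative with a test. Scaling mattered most. Under the total UMI count, Ybx3 passed at the steps 1 to 2 (-0.49), 3 to 4 (-0.42), 4 to 5 (-1.30) and 5 to 6 (0.78), and without Prm1, Prm2, Tnp1 and Tnp2 in that count, an alternative chosen after seeing the data, it passed with -0.50, -0.42, -1.04 and 0.62. In these 2 settings Ybx1 turned to -0.21 and -0.21 from cluster 3 to 4 and to -0.998 and -0.76 from 4 to 5, and Ybx2 from 4 to 5 lost its call with -0.060 and 0.20. With DESeq2 size factors in edgeR, Ybx3 passed from 1 to 2 (-0.54) and turned to 0.060 from 4 to 5 and -0.032 from 5 to 6, and Ybx1 turned to -0.14 from 5 to 6. DESeq2 gave -0.54, 0.060 and -0.032 for the same steps of Ybx3, -0.15 for Ybx1 from 5 to 6, and 1.30 without a call for Ybx2 from 4 to 5. It gave 5 lower calls on cold-shock domain genes, summed over the 5 steps, in place of 3. Without a filter, Ybx2 had 0.064 from 1 to 2 and passed from 2 to 3 (-0.88) and 5 to 6 (-1.03), Ybx1 had -0.32 from 4 to 5 and -0.050 from 5 to 6, and Ybx3 passed from 4 to 5 (-0.57). On the 2000 most variable genes, Ybx2 passed from 2 to 3 (-1.17) and Ybx1 had -0.11 from 3 to 4 and -0.18 from 5 to 6, where Leiden clustering gave -0.032 and -0.10. With the replicate block, Ybx1 (-0.27) and Ybx2 (-0.85) passed from 2 to 3 and Ybx2 (-0.92) from 5 to 6, and no other call on a member changed; no list's count of calls, summed over the 5 contrasts, moved by over 1.5 times. With 1 animal left out, Ybx2 ranged from -0.25 to 0.23 from 1 to 2, from -0.95 to -0.74 from 2 to 3, from -0.35 to 0.080 from 3 to 4 and from 0.84 to 1.32 from 4 to 5. Ybx1 ranged from -0.0090 to 0.035 from 3 to 4 and from -0.064 to 0.15 from 4 to 5, and Ybx3 from -0.041 to 0.42 from 5 to 6; no test was possible there. The ratio between animals over the large clusters together was 3.87 thinned for Ybx1 and 2.13 for Ybx2, against 3.70 and 2.21. With TMM it was taken as the mean of the cluster ratios on the log2 scale, giving 3.93 and 2.02. The same mean in CPM was 3.82 and 1.96. Mean shares of cells were 88.99, 83.5 and 63.8% for Ybx1, Ybx2 and Ybx3 when thinned, against 94.6, 97.9 and 87.9%. The share of all called genes that were higher was 50.9, 56.1, 45.3 and 59.5% at the steps 1 to 2, 3 to 4, 4 to 5 and 5 to 6, and 39.0, 40.2, 19.1 and 85.8% under the total UMI count, where the median of all genes was -0.24, -0.31, -1.25 and 0.59. With DESeq2 size factors it was 37.3% at the first and 47.0% at the last of these. From cluster 4 to 5, 3662 genes were called higher and 4415 lower, against 1810 and 7680 under the total UMI count; from 5 to 6 it was 3247 and 2213 against 5059 and 838, and from 3 to 4 the lower calls were 2817 against 4541. The causes were not tested. Depth limits the small clusters, where a member had 25 UMIs or fewer per animal.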
